A study of Mus musculus with 83 samples.

Results

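The 10 genes described here are known for the mucus layer and for goblet cells, and they were followed gene by gene through the colon of 83 male C57BL/6J/Ukj mice: Muc2, Fcgbp, Clca1, Zg16, Tff3, Agr2, Spdef, Muc13, Muc4 and Muc1. They were taken by symbol from a table of read counts for 37764 genes, all 10 were found, and all 10 were among the 18325 genes with enough counts to be tested. RNA of the proximal part of the colon was sequenced from mice of 3 months (n = 16), 9 months (n = 16), 15 months (n = 16), 24 months (n = 17) and 28 months (n = 18). Each mouse is a sample of its own, the groups differ in age only as far as the labels say, and no treatment or engineered allele is named. Libraries were prepared in 3 batches, with 4 to 7 mice of every age in each batch. A library held between 23026370 and 75838290 counted read pairs, with a median of 35495123. Even the rarest of the 10 genes, Muc1, had at least 92 counts in every mouse.

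Goblet cells are the secretory cells of the gut epithelium that make the mucus covering the colon. Muc2 is the gel-forming mucin that builds this mucus, Fcgbp, Clca1 and Zg16 are secreted with it and form part of the gel, Tff3 is a small secreted peptide that aids epithelial repair, and Agr2 is a protein disulfide isomerase of the endoplasmic reticulum that Muc2 needs for folding. Spdef is a transcription factor of goblet cell maturation. Muc13, Muc4 and Muc1 are mucins anchored in the apical membrane and are not restricted to goblet cells. The level of a gene in whole tissue depends on the number of cells that express it and on the RNA per cell, and these cannot be told apart here.

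The sequence just upstream of the gene start is shown for the most abundant of the 10 genes, Muc2, for Fcgbp and Agr2, which fell late in life, and for Muc1, which rose. Each line gives the 250 bases before the RefSeq start (GRCm38.p6, plus strand for all 4), which are chr7:141690090-141690339 for Muc2, chr7:28070986-28071235 for Fcgbp, chr12:35992675-35992924 for Agr2 and chr3:89228806-89229055 for Muc1. Capitals mark matches to the motifs searched.
Muc2: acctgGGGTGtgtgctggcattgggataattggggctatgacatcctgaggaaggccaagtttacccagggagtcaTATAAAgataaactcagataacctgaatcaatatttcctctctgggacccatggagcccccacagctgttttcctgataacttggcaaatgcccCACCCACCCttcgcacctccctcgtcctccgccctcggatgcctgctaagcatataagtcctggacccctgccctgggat
Fcgbp: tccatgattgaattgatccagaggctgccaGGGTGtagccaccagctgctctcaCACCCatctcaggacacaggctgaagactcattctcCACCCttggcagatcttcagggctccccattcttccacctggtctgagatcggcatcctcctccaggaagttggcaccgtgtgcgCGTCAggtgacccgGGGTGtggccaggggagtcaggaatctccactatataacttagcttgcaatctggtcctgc
Agr2: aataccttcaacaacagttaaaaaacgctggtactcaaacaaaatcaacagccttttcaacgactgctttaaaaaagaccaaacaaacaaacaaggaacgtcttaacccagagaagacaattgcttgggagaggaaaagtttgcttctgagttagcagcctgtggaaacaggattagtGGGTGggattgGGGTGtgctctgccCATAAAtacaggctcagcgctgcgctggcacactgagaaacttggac
Muc1: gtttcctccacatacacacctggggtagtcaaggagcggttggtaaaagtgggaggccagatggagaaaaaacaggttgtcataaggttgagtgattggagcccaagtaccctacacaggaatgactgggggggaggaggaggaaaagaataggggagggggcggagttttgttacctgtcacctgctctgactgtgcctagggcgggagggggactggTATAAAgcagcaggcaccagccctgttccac
Entries were found for 7 of the 10 genes, in 8 windows since Muc13 has 2 starts, and Clca1, Zg16 and Tff3 had none. The motifs were a TATA box (TATAAA, coding strand only) and, on both strands, the cores GGGTG of Klf4, TTTATG of the CDX factors, TGACG of CREB-type factors, TGTTTAC of the FOXA factors and CCGGAT of Spdef. The Muc1 window held a TATA box at position -31 and the Muc4 window at position -36, counted back from the start, and the Muc2 window held TATAAA at position -174. A TATA box was present in 7.59% of all 32851 windows of this length. GGGTG was found in the windows of Muc2, Fcgbp, Agr2 and Muc4, with overlapping matches in Muc2, and in 52.0% of all windows. TTTATG was found in Agr2, Spdef and 1 of the Muc13 windows (10.8% of all windows) and TGACG in Fcgbp and Spdef (17.8%). TGTTTAC (3.17%) and CCGGAT (4.94%) were not found in any of the 8 windows. CpG sites, the substrate of DNA methylation, numbered 4 in the Muc2 window, 5 in Fcgbp, 5 in Agr2, 7 in Spdef, 0 and 4 in the Muc13 windows, 1 in Muc4 and 3 in Muc1, against a median of 6 over all windows. These are matches of letters only.

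Together the 10 genes took 3.67% ± 0.273 (SD) of all counted read pairs in mice of 3 months, 3.99% ± 0.319 in those of 9 months, 4.14% ± 0.579 in those of 15 months, 3.64% ± 0.365 in those of 24 months and 3.07% ± 0.300 in those of 28 months, with the numbers of mice given above. To order the genes by level, counts were divided by gene length and given as TPM (transcript levels scaled to a common sum in every mouse), averaged over 83 mice. Muc2 was highest at 7849 TPM and ranked 7 among all genes, followed by Zg16 with 5883 TPM, Clca1 with 4784 TPM, Agr2 with 4223 TPM and Tff3 with 2776 TPM. Fcgbp (1660 TPM) and Muc13 (1503 TPM) came next, Spdef stood at 286 TPM, Muc4 at 72.2 TPM and Muc1 at 7.95 TPM. Clca1 was above Agr2 in 45 of 83 mice and Fcgbp above Muc13 in 49 of 83, so these neighbours were not separated beyond the spread between mice. Zg16 was above Clca1 in 57 of 83 mice, and each of the other neighbours kept its order in at least 79. The place of Clca1 moved with age, from rank 18 at 3 months to 9 at 15 months and 30 at 28 months. The Muc2 model of the annotation is short (7127 bases of merged exons), and uniquely mapped reads undercount repeats, which mucins are rich in, so levels of mucins per length are approximate. With the length of the longest transcript Muc2 stood at 15116 TPM, and Agr2 (4754 TPM) was above Clca1 (3917 TPM).

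In these genes 1 library stood apart most broadly. In the 15-month mouse with replicate number 16, log2 CPM (CPM are counts scaled to a common, TMM-normalized library size) differed from the value fitted for its age and batch by -1.07 for Muc2, -1.47 for Fcgbp, -0.87 for Clca1, -0.55 for Spdef, -0.90 for Muc13, -1.29 for Muc4 and -0.59 for Muc1, but by 0.36 for Agr2, 0.16 for Tff3 and -0.00 for Zg16. Its library also had the second lowest balance of long against short transcripts of the 83 (-0.35 on the log2 scale, a measure explained with the correlations), the lowest mean log2 CPM of pan-epithelial markers (9.51) and the highest TMM factor (1.10), and the part of these in its low values was not tested. The 28-month mouse with replicate number 13 deviated most over all genes (median absolute deviation 0.243 on the log2 scale, against 0.227 for the former and a median of 0.0980 over the 83 mice) and had the highest balance of long against short transcripts (0.28), with deviations of -0.88 for Clca1, -0.75 for Muc1 and -0.45 for Fcgbp. Both were kept in the analysis, and results that rest on the 15-month mouse are given with and without it.

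Over the 5 ages, 9 of the 10 genes differed with age at an adjusted p below 0.1, against 54.9% of all genes tested. Zg16 did not pass (adjusted p = 0.253). Agr2 (adjusted p = 1.36e-10) and Clca1 (adjusted p = 5.1e-09) had the lowest p-values. A course that bent, tested by the curved terms of age together, was found for Clca1 (adjusted p = 2.22e-06), Agr2 (adjusted p = 4.47e-05), Fcgbp (adjusted p = 0.000127) and Muc1 (adjusted p = 0.0469), 4 of 10 genes against 16.2% of all genes. Clca1 and Fcgbp had their highest median at 15 months, Agr2 at 9 months, and Muc1 had its lowest at 9 months and its highest at 28 months. The courses were not compared by a test, and none of these 4 genes passed between 9 and 15 months (adjusted p from 0.303 to 0.878).

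**Figure D1:**
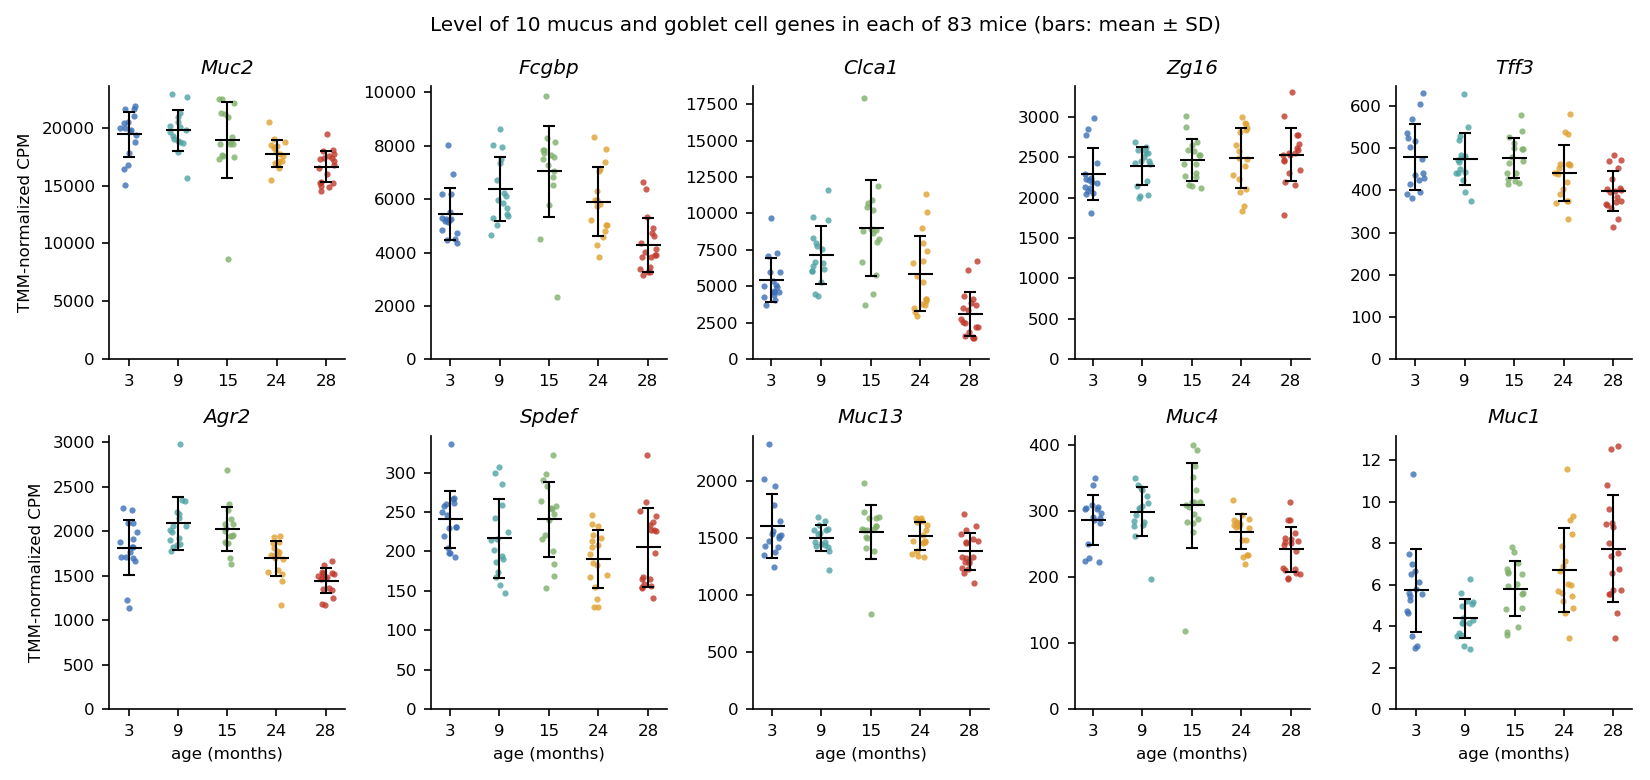
Level of each of the 10 genes (TMM-normalized CPM, linear axes from 0) in every mouse at 3, 9, 15, 24 and 28 months; points are mice, black bars the mean ± SD. Clca1 climbs to a median of 8813 CPM at 15 months and lies at 2664 CPM at 28 months, whereas Zg16 stays between medians of 2207 and 2538 CPM, and the low point at 15 months in Muc2, Fcgbp, Muc13 and Muc4 is the mouse with replicate number 16.

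Clca1, a secreted metalloprotease that processes the Muc2 gel, had the largest change of the 10 genes between 15 and 28 months. Its level was 3723 CPM in the lowest, 4986 in the median and 9660 in the highest mouse at 3 months, 4359, 6634 and 11579 CPM at 9 months, and 3697, 8813 and 17917 CPM at 15 months. At 24 months the lowest, median and highest mice had 2956, 5332 and 11334 CPM, and at 28 months 1447, 2664 and 6710 CPM. The ages overlapped, but 13 of 18 mice of 28 months were below the lowest mouse of 15 months. Clca1 was lower at 24 than at 15 months by a log2 fold change of -0.61 (SE 0.19, adjusted p = 0.0291) and lower again at 28 than at 24 months by -0.91 (SE 0.18, adjusted p = 0.000602). From 15 to 28 months the change was -1.52 (SE 0.19, adjusted p = 7.02e-10), to 0.348 of the 15-month level. This fall was seen in each library batch, with differences in mean log2 CPM of -2.12, -1.45 and -1.13. The earlier rise was gradual: the change was 0.40 (SE 0.19, adjusted p = 0.220) from 3 to 9 months and 0.32 (SE 0.19, adjusted p = 0.615) from 9 to 15 months, neither past the threshold, and 0.72 (SE 0.19, adjusted p = 0.00981) from 3 to 15 months, a comparison in which 7.75% of all genes passed. The coefficient of variation between mice of an age was 27.8% at 3 months, where that of Muc1 was 34.8%, and 49.2% at 28 months.

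Fcgbp, a large mucus protein that is cross-linked into the Muc2 gel, had a course like that of Clca1 with a smaller range. The lowest, median and highest mice had 4366, 5242 and 8019 CPM at 3 months, 4642, 6044 and 8645 CPM at 9 months, 2328, 7543 and 9866 CPM at 15 months, 3825, 5810 and 8313 CPM at 24 months and 3162, 3972 and 6629 CPM at 28 months. All 18 mice of 28 months lay below the 15-month median, although none lay below the 15-month minimum, which is the mouse with replicate number 16. Between 15 and 28 months Fcgbp fell by 0.71 on the log2 scale (SE 0.11, adjusted p = 4.36e-07), and the larger step came between 24 and 28 months (-0.46, SE 0.11, adjusted p = 0.00388). The difference between 15 and 24 months was -0.25 (SE 0.11, adjusted p = 0.156). Without replicate 16 at 15 months it was -0.31 (adjusted p = 0.0358), and without replicate 3 at 24 months -0.28 (adjusted p = 0.0983). Fcgbp was higher at 15 than at 3 months by 0.36 (SE 0.11, adjusted p = 0.0405).

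Agr2 had a narrower relative spread between mice than Clca1 and Fcgbp at every age. Its lowest, median and highest levels were 1141, 1823 and 2264 CPM at 3 months, 1774, 2034 and 2981 CPM at 9 months, 1631, 1980 and 2690 CPM at 15 months, 1174, 1731 and 1948 CPM at 24 months and 1170, 1476 and 1669 CPM at 28 months. Of the 18 mice of 28 months, 17 lay below the lowest mouse of 15 months, so the groups barely overlapped. Agr2 rose between 3 and 9 months by 0.21 (SE 0.07, adjusted p = 0.0542). It fell by 0.26 between 15 and 24 months (SE 0.07, adjusted p = 0.00703) and by 0.22 between 24 and 28 months (SE 0.06, adjusted p = 0.0192), with the same sign in each batch in both intervals. The change from 15 to 28 months was -0.48 (SE 0.06, adjusted p = 7.46e-09), to 0.715 of the 15-month level. The rise from 3 to 9 months lost its call without any of 3 mice of 3 months, those with replicate numbers 13, 15 and 16 (adjusted p from 0.101 to 0.108).

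Muc2 itself changed less between 15 and 28 months than Clca1, Fcgbp and Agr2. The lowest, median and highest mice had 15062, 19872 and 21860 CPM at 3 months, 15627, 19709 and 22888 CPM at 9 months, 8667, 18676 and 22500 CPM at 15 months, 15484, 17753 and 20493 CPM at 24 months and 14550, 16965 and 19451 CPM at 28 months. All 18 mice of 28 months lay below the 3-month median, and 3 of them below the 3-month minimum. Muc2 fell by 0.23 between 3 and 28 months (SE 0.06, adjusted p = 0.000988) and by 0.20 between 15 and 28 months (SE 0.06, adjusted p = 0.00726). With each mouse left out in turn, the latter change lay between -0.25 and -0.17 (adjusted p from 7.16e-06 to 0.0200). No interval between neighbouring ages passed the threshold, with changes from -0.10 to 0.02. Without replicate 16 at 15 months, Muc2 was lower at 24 than at 15 months by -0.15 (adjusted p = 0.0298). In the third batch, which holds that mouse, the difference between 15 and 28 months was 0.02 with it and -0.25 without it.

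Zg16, a lectin-like protein that binds Gram-positive bacteria and keeps them from the epithelium, did not share the late fall. Its median rose from 2207 CPM at 3 months (lowest 1804, highest 2984) through 2453, 2469 and 2491 CPM at 9, 15 and 24 months to 2538 CPM at 28 months (lowest 1786, highest 3305). The change from 15 to 28 months was 0.03, with a 95% confidence interval from -0.09 to 0.16 (adjusted p = 0.723), and that from 3 to 28 months was 0.15 (SE 0.06, adjusted p = 0.0539), with 15 of 18 mice of 28 months above the 3-month median. This call was lost without the 28-month mouse with replicate number 17 (adjusted p = 0.128). Tff3 stood at medians of 457, 469 and 474 CPM at 3, 9 and 15 months (extremes 376 and 631 over these ages), 442 CPM at 24 months (332 to 581) and 398 CPM at 28 months (313 to 484). The lowest mouse of 15 months was above 13 of the 18 mice of 28 months. Tff3 fell by 0.26 between 15 and 28 months (SE 0.07, adjusted p = 0.00116) and by 0.27 between 3 and 28 months (SE 0.07, adjusted p = 0.000588), while neither step between neighbouring late ages passed by itself. Without replicate 10 at 28 months the last step did, at -0.17 (adjusted p = 0.0950).

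Spdef, the regulator, had medians of 239 CPM at 3 months (193 to 336), 208 CPM at 9 months (147 to 307), 251 CPM at 15 months (153 to 322), 196 CPM at 24 months (129 to 246) and 212 CPM at 28 months (141 to 322). It fell by 0.33 between 15 and 24 months (SE 0.10, adjusted p = 0.0316), where all 17 older mice lay below the 15-month median, and was 0.11 higher at 28 than at 24 months (SE 0.10, adjusted p = 0.548). Its call between 15 and 28 months (-0.22, SE 0.10, adjusted p = 0.0829) was lost on leaving out any of 14 of the 34 mice (adjusted p up to 0.179), and that between 3 and 28 months (-0.23, SE 0.10, adjusted p = 0.0613) without replicate 10 at 3 months (adjusted p = 0.173) or replicate 3 at 28 months (adjusted p = 0.102). The course of Spdef after 24 months was thus not that of Clca1, Fcgbp and Agr2, although the difference between the courses was not tested.

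The membrane mucins went in different directions. Muc4, a large membrane mucin that overlaps Muc20 on the other strand, had medians of 294, 305, 311, 277 and 249.8 CPM at 3, 9, 15, 24 and 28 months, with extremes of 119 and 399.9 CPM, both at 15 months. It fell by 0.34 between 15 and 28 months (SE 0.08, adjusted p = 0.000312), and its change between 15 and 24 months was -0.19 (SE 0.08, adjusted p = 0.112). Leaving out any of 3 mice (replicates 9 and 16 at 15 months, replicate 17 at 24 months) brought that step past the threshold (adjusted p from 0.00754 to 0.0977). Muc13, a membrane mucin of the gut epithelium, had medians of 1523, 1500, 1579, 1478 and 1332 CPM, and fell by 0.17 between 15 and 28 months (SE 0.06, adjusted p = 0.0280) and by 0.21 between 3 and 28 months (SE 0.06, adjusted p = 0.00489). The former was lost without the 15-month mouse with replicate number 15 (adjusted p = 0.104). Both falls from 15 to 28 months were seen in the first and the second batch, whereas in the third the difference was 0.10 for Muc4 and 0.09 for Muc13 with replicate 16 at 15 months and -0.21 and -0.15 without it.

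Muc1 moved the other way at low counts. The lowest, median and highest mice had 2.96, 5.59 and 11.3 CPM at 3 months, 2.92, 4.23 and 6.26 CPM at 9 months, 3.56, 5.98 and 7.83 CPM at 15 months, 3.41, 6.05 and 11.6 CPM at 24 months and 3.45, 7.45 and 12.7 CPM at 28 months. Of the 18 mice of 28 months, 8 lay above the highest mouse of 15 months and 1 below its lowest, so that the ages overlapped widely. Muc1 rose by 0.41 between 15 and 28 months (SE 0.14, adjusted p = 0.0202) and by 0.42 between 3 and 28 months (SE 0.14, adjusted p = 0.0129). It was lower at 9 than at 3 months by -0.40 (SE 0.15, adjusted p = 0.0992), a call lost on leaving out any of 21 of the 32 mice (adjusted p up to 0.234), and its change from 9 to 15 months was 0.41 (SE 0.15, adjusted p = 0.303).

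Counted by interval, 2 of 10 genes passed between 3 and 9 months (Agr2 higher, Muc1 lower; 8.69% of all genes). Muc1 lost this call under 7 other settings, Agr2 under 1, and both at a threshold of 0.05. Between 9 and 15 months 0 of 10 passed by edgeR, where 0.431% of all genes passed, 1 of the 10 had an unadjusted p below 0.05 and DESeq2 also called 0. Between 15 and 24 months 3 of 10 were lower (Agr2, Clca1 and Spdef), against 7.24% of all genes. Without replicate 16 at 15 months 6 of 10 were lower, with Muc2, Fcgbp and Muc4 added, and the share of all genes in that fit was not counted. Between 24 and 28 months 3 of 10 were lower (Agr2, Clca1 and Fcgbp), against 6.01%. Genes that did not pass changed by -0.15 (Spdef) to 0.40 (Clca1) from 3 to 9 months, by -0.06 (Muc2) to 0.41 (Muc1) from 9 to 15 months, by -0.25 (Fcgbp) to 0.21 (Muc1) from 15 to 24 months and by -0.15 (Muc4) to 0.19 (Muc1) from 24 to 28 months. Between 15 and 28 months 8 of 10 were lower and 1, Muc1, was higher, against 22.2% and 20.2% of all genes. Between 3 and 28 months 8 were lower and 2, Muc1 and Zg16, were higher, against 25.9% and 23.5%, with changes from -0.80 for Clca1 to 0.42 for Muc1. The 3-to-28 and 15-to-28 comparisons share the 28-month mice. The median change of the 10 genes between 15 and 28 months was -0.24, and that of all genes tested -0.00293.

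**Figure D2:**
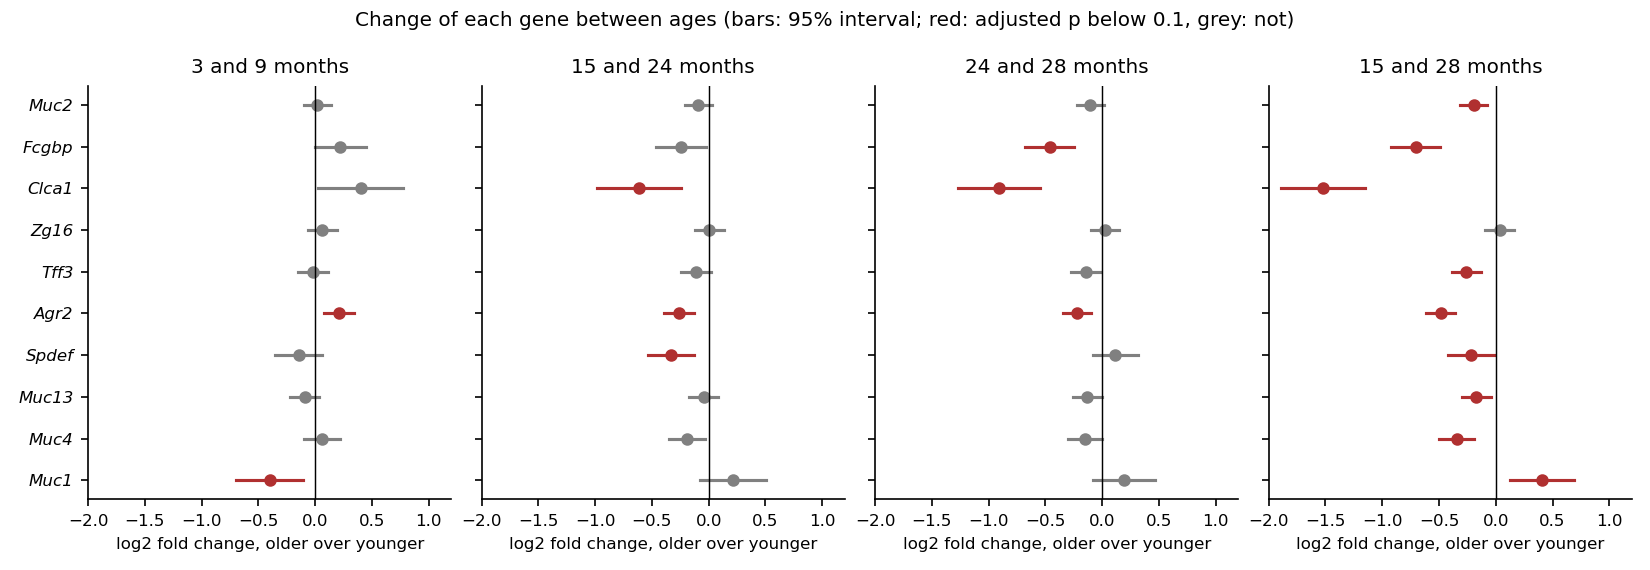
Log2 fold change of each gene, older over younger age, in 4 comparisons, with 95% confidence intervals; red marks an adjusted p below 0.1. Between 15 and 28 months Clca1 (-1.52), Fcgbp (-0.71) and Agr2 (-0.48) lie farthest to the left, Zg16 lies at 0.03 and Muc1 (0.41) to the right.

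Within an age, the 10 genes did not vary as a block. Pearson's r of log2 CPM over the 83 mice, with age and batch means taken out, was 0.84 between Fcgbp and Clca1, 0.65 between Muc2 and Muc4 and 0.50 between Zg16 and Tff3, whereas Clca1 had an r of 0.01 with Muc2, 0.07 with Agr2 and -0.31 with Zg16. Fcgbp and Clca1 were tied at every age, with r from 0.79 at 15 months to 0.95 at 28 months. The pair Muc2 and Muc4 rested in part on 1 mouse: without replicate 16 at 15 months its r was 0.34, that of Muc2 and Fcgbp went from 0.36 to -0.04, and that of Fcgbp and Clca1 was 0.89. The points share libraries and depth. Long and short transcripts also shifted against each other between libraries. The balance was the median log2 level of 6557 long genes minus that of 2660 short genes, with batch means taken out. Its mean by age lay between -0.03 and 0.02. With age means taken out as well, it had an r of 0.60 with Muc4, 0.38 with Muc2, -0.48 with Agr2 and -0.62 with Tff3. The balance with age means kept was also used as a covariate. All 8 falls and the rise of Muc1 between 15 and 28 months then kept their direction and call.

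**Figure D3:**
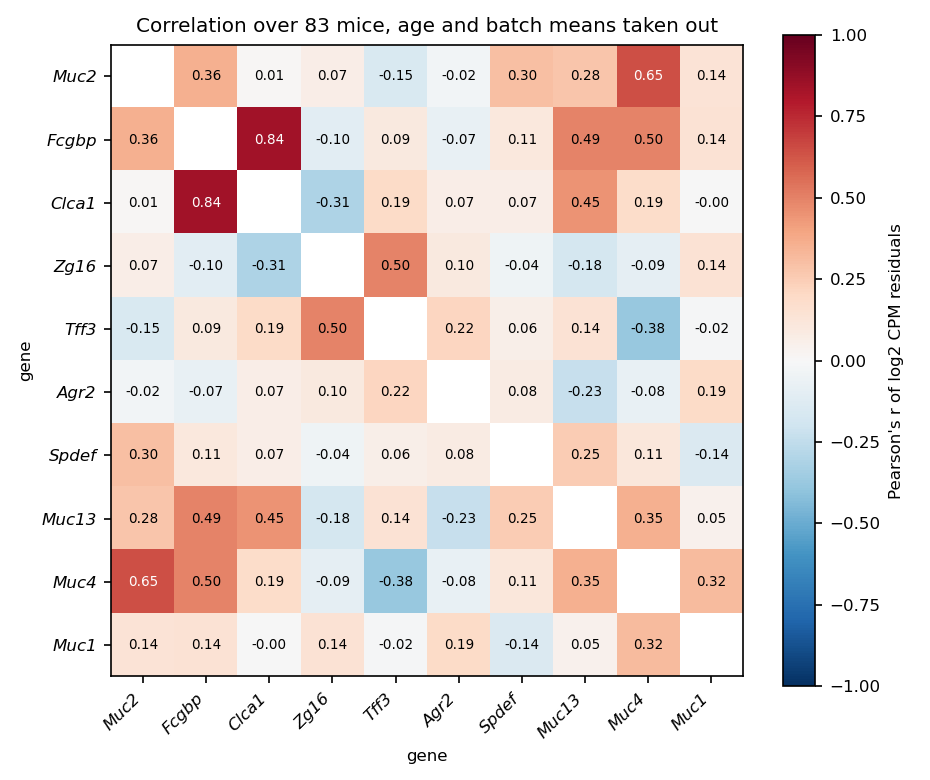
Pearson's r between the log2 CPM of each pair of the 10 genes over 83 mice, after age and batch means were taken out; red is positive, blue negative. Fcgbp and Clca1 (0.84) form the darkest cell, and Agr2 has no r above 0.22 with any of the other genes.

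The genes whose levels followed Muc2 most closely within an age (of all tested genes with a mean of at least 1 CPM) were App, Eif3c, Clstn1, Ece1 and Creb3l1, with r from 0.74 to 0.72. This order rested on the 15-month mouse with replicate number 16: without it r lay between 0.29 for Ece1 and 0.53 for Creb3l1, and Creb3l1 ranked 9 and App 340. Creb3l1 is a membrane-bound transcription factor of secretory cells. For Muc13 they were Rnpep, Psmd11, Npepps, Rrbp1 and Sgpp2 (r from 0.74 to 0.70, and from 0.64 to 0.50 without that mouse, with none of these then ranked above 6), and for Spdef Gpat4, Smim3, Timm29, Nkx2-2 and Rexo4 (r from 0.74 to 0.71), which were the top 5 without it too (r from 0.73 to 0.71).

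A further 4 lists of genes bear on how mucus is made, and their counts stand beside 22.2% of all genes lower and 20.2% higher between 15 and 28 months. Of 11 transcription factors of goblet cell fate, 4 were lower and 1 higher between 15 and 28 months, with a median change of -0.12, and 8 were lower and 1 higher between 3 and 28 months, where 25.9% and 23.5% of all genes were. Foxa3 fell by 0.34 (SE 0.07, adjusted p = 4.47e-05), Xbp1, the factor of the unfolded protein response, by 0.27 (SE 0.05, adjusted p = 5.45e-06) and Foxa2 by 0.24 (SE 0.10, adjusted p = 0.0450), and Klf4, a factor of terminal goblet cell differentiation, rose by 0.16 (SE 0.05, adjusted p = 0.00651). Atoh1, which commits cells to the secretory lineage, was lower at 24 than at 15 months by -0.22 (SE 0.09, adjusted p = 0.0887) and changed by -0.12 from 15 to 28 months (SE 0.09, adjusted p = 0.286).

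Of 16 genes of granule release and ion transport, 9 were lower and 0 higher between 3 and 28 months, against 25.9% and 23.5% of all genes. Between 15 and 28 months 10 were lower and 1 higher (22.2% and 20.2% of all genes), with a median change of -0.18. Scin, an actin-severing protein, fell by 0.55 (SE 0.08, adjusted p = 2.92e-08), Capn9, a calpain of the gut epithelium, by 0.52 (SE 0.08, adjusted p = 9.3e-08) and Fer1l6 by 0.36 (SE 0.07, adjusted p = 2.12e-05). The gene that rose was Best2, a bestrophin channel of colonic goblet cells (0.73, SE 0.20, adjusted p = 0.00346), at a mean of 5.03 CPM. Of 26 tested genes of mucin O-glycosylation and sulfation, 11 were lower and 3 higher between 3 and 28 months, against 25.9% and 23.5% of all genes. Between 15 and 28 months 13 were lower and 5 higher, the latter near the share of all genes, with a median change of -0.11. St3gal6, a sialyltransferase, fell by 0.78 (SE 0.14, adjusted p = 6.2e-06), Galnt3, which starts O-glycan chains, by 0.32 (SE 0.05, adjusted p = 2.59e-07) and B4galnt2, a glycosyltransferase of the colonic epithelium, by 0.30 (SE 0.08, adjusted p = 0.00104). Gal3st2, a sulfotransferase, rose by 0.53 (SE 0.11, adjusted p = 4.47e-05).

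Of 20 tested genes for other mucins and mucus layer proteins, 6 were lower and 2 higher between 15 and 28 months, against 22.2% and 20.2% of all genes, and 12 were lower and 5 higher between 3 and 28 months, against 25.9% and 23.5%. The largest falls were those of Itln1, an intelectin that binds microbial glycans (-2.88, SE 0.49, adjusted p = 2.65e-06), Ang4, an antimicrobial ribonuclease (-2.33, SE 0.39, adjusted p = 2.31e-06), and Retnlb, a bactericidal peptide of goblet cells (-2.04, SE 0.31, adjusted p = 2.56e-07). Ang4 had 153 CPM in the lowest, 883 in the median and 2571 in the highest mouse at 15 months, and 4.29, 112 and 666 CPM at 28 months. Retnlb had 132, 846 and 3210 CPM at 15 months and 81.4, 177 and 605 CPM at 28 months. The ages overlapped in these genes, with the medians far apart. At 3 months the medians were 340.5 CPM for Ang4 and 364 CPM for Retnlb, below those of 15 months. Clca4b rose by 1.15 (SE 0.31, adjusted p = 0.00219), and since the Clca genes and the angiogenins each have close relatives, reads shared with a copy were not counted. Muc5ac and Tff1, mucus genes of the stomach, had a median of 0 CPM over all mice.

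Retnlb, Ang4 and Itln1 were then set against Clca1, a choice made after their values were seen. Over 83 mice with age and batch means taken out, r with Clca1 was 0.88 for Ang4, 0.88 for Itln1 and 0.84 for Retnlb. Within single ages r lay between 0.83 and 0.98 for Ang4, between 0.74 and 0.94 for Itln1 and between 0.64 and 0.92 for Retnlb. Without the 15-month mouse with replicate number 16 the values over the remaining 82 mice were 0.91, 0.90 and 0.88. Single mice departed from this: that mouse was low in Clca1 (4452 CPM) with 1167 CPM of Retnlb, above the median of its age, and the 3-month mouse with replicate number 16 was high in Clca1 (7263 CPM) with 296 CPM of Retnlb, below the median of its age.

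**Figure D4:**
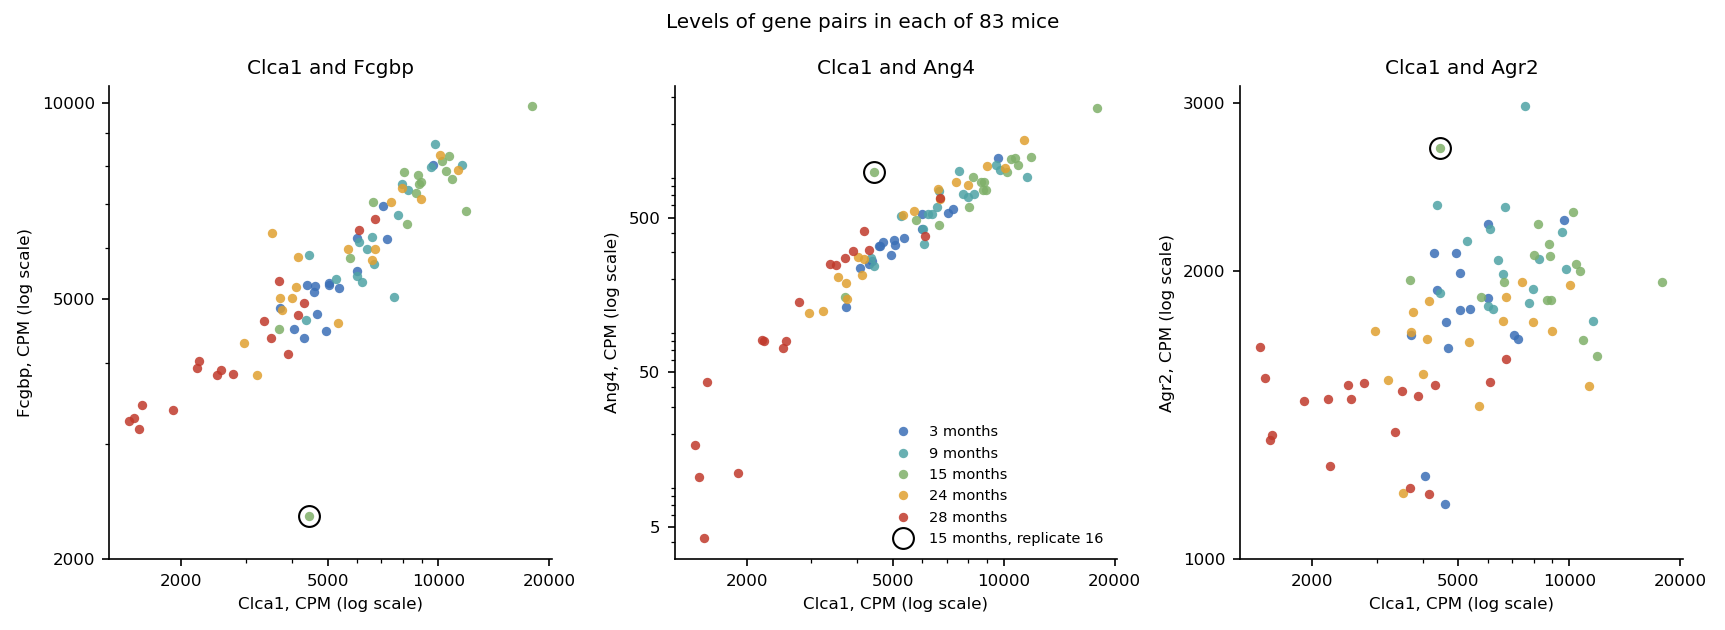
Levels of Fcgbp, Ang4 and Agr2 (CPM, log axes) against that of Clca1 (CPM, log axis) in each of 83 mice, coloured by age; the ring marks the 15-month mouse with replicate number 16. Fcgbp and Ang4 climb with Clca1 through all ages. Over all mice r with Clca1 is 0.52 for Agr2 and 0.89 for Fcgbp. Once age and batch means are taken out, r is 0.07 for Agr2 and 0.84 for Fcgbp.

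**Figure D5:**
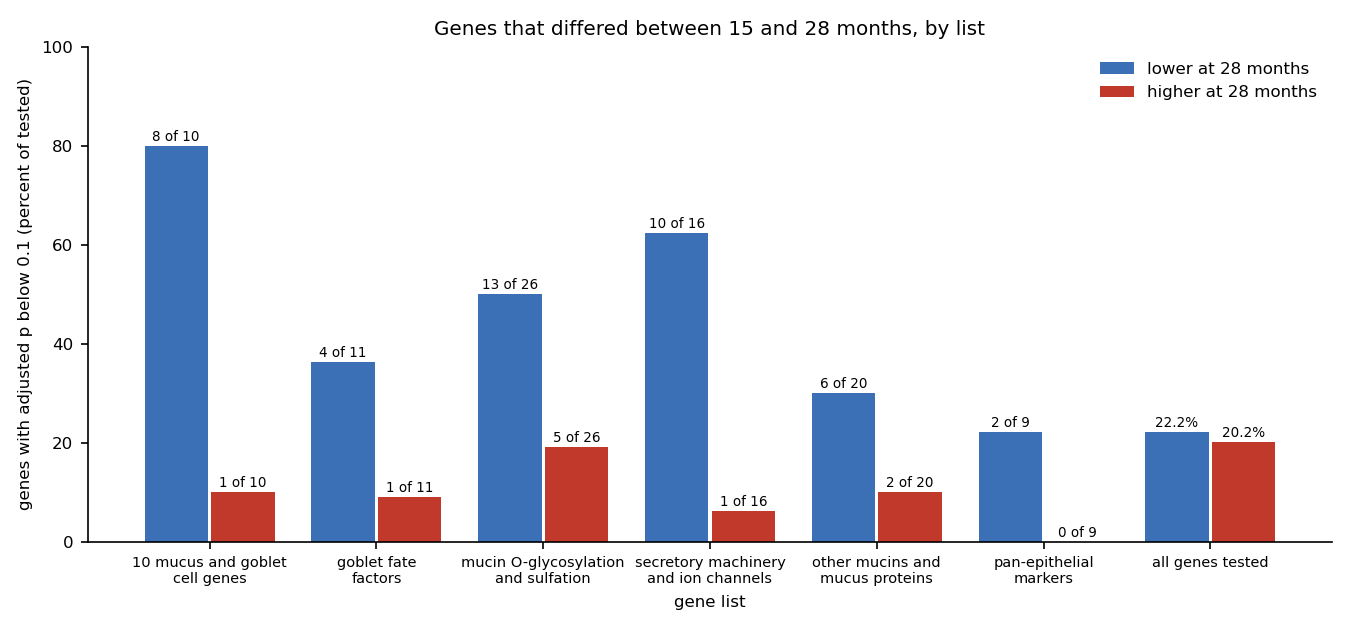
Percent of the tested genes of each list that were lower (blue) or higher (red) at 28 than at 15 months at an adjusted p below 0.1, with the numbers of genes above the bars and all genes tested at the right. The 10 genes (8 lower) and the genes of granule release and ion transport (10 of 16 lower) have the tallest blue bars of the lists drawn; other cell type markers are not drawn.

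Some markers of other cells also differed between 15 and 28 months, where 22.2% of all genes were lower and 20.2% higher. Of 9 pan-epithelial markers, 4 were lower and 0 higher between 3 and 28 months, against 25.9% and 23.5% of all genes. Between 15 and 28 months 2 were lower, close to the 22.2% of all genes, and 0 higher. Their summed level ranged from 8200 to 13803 CPM at 15 months and from 10131 to 13718 CPM at 28 months. Of 4 tested tuft cell markers all 4 were lower, with sums from 39.4 to 64.2 CPM at 15 months and from 25.9 to 51.1 CPM at 28 months. Of 6 B and plasma cell markers 5 were lower, and so were 3 of 6 absorptive colonocyte and 3 of 6 enteroendocrine markers. Of 5 macrophage markers 4 were higher, as were 3 of 4 endothelial and 3 of 5 T cell markers. Smooth muscle markers, which the tissue also holds, had 0 of 6 called in edgeR. The part of these cells in the changes of the 10 genes was not tested beyond adding scores as covariates. With the pan-epithelial score as a covariate, the changes from 15 to 28 months were -1.45 for Clca1, -0.63 for Fcgbp and -0.48 for Agr2, all past the threshold, while the change of Spdef went from -0.22 to -0.17 and its call was lost (adjusted p = 0.173). Of 6 markers of Paneth cells and the small intestine, Lyz1 (median 5.28 CPM, from 2.29 to 9.93) and Fabp6 (median 2.64 CPM, from 1.21 to 6.85) had counts in every mouse, while Lct, Apoa4, Defa24 and Defa30 had medians of at most 0.132 CPM. The 5 squamous markers had medians of at most 0.281 CPM. Hoxb13, a marker of the distal colon, had a median of 19.4 CPM and ranged from 2.25 to 38.4 CPM between mice, with a change of -0.09 from 15 to 28 months (SE 0.26, adjusted p = 0.822).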

How the data were processed

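RNA of the proximal colon was sequenced with a stranded, poly(A)-selected protocol in 83 mice. The authors trimmed reads with cutadapt 2.8, aligned them to GRCm38 with HISAT2 2.1.0, kept uniquely mapped pairs and counted them per gene and strand with featureCounts of Subread 2.0.1, per the labels and the study's methods. The deposited counts are whole read pairs per gene and mouse, not normalized and not pooled, with 23026370 to 75838290 per mouse.

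Counts were tested with edgeR 4.0.16 in R 4.3.3: genes kept by filterByExpr, TMM normalization, and 1 quasi-likelihood fit of age group and library batch over all mice, with Benjamini-Hochberg adjustment over 18325 genes and a threshold of 0.1. CPM are counts scaled to the TMM-normalized library size. Log2 CPM for correlations had a prior count of 2. TPM used merged exon lengths of GENCODE M21 (GRCm38). Fits were tested on simulated data. The 10 genes and all gene lists were chosen with earlier results of these data known.

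All 10 genes are covered in every comparison, by value or by range. From each list, at most the 3 largest rises and 3 largest falls of called genes with at least 1 CPM on average are named, plus Atoh1, Klf4 and Foxa3, and the 5 genes most like Muc2, Muc13 and Spdef. Muc5ac, Tff1, Hoxb13 and the small intestine markers were named after their values were seen. Alternatives were other size factors, other filters, a fit without batch, a block for the replicate number, marker scores as covariates, only the 2 ages compared, DESeq2 1.42.0, a stricter threshold of 0.05, each mouse left out and, added after the data were seen, a length covariate, leaving out 3 mice and, for correlations, leaving out 1 mouse. When a mouse was left out, the dispersion trend of the whole fit was kept. DNA methylation was not analysed here.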

Additional observations from a re-analysis of the deposited data

How the results depend on the processing

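Between 3 and 9 months 1 gene rather than 2 of the 10 passed with DESeq2's size factors, without a filter, with at least 10 counts in every mouse, without the batch term, with the replicate block, with the pan-epithelial score and with only the 2 ages, and 0 at an adjusted p below 0.05. Muc1 lost its call in these 7 fits (adjusted p from 0.102 to 0.181), and with only the 2 ages Agr2 lost its call too (adjusted p = 0.157) and Clca1 passed (0.41, adjusted p = 0.0814). The count between 9 and 15 months was 1 with only the 2 ages, where Muc1 was higher, and that between 15 and 24 months was 6 without the 3 mice that stood most apart over all genes (chosen after the data were seen). The share of all genes was not counted without these 3 mice or with single mice left out. Leaving out each mouse in turn gave 1 to 2 genes between 3 and 9 months, 0 between 9 and 15, 3 to 6 between 15 and 24 (6 without replicate 16 at 15 months), 3 to 4 between 24 and 28, 9 to 10 between 3 and 28 and 8 to 9 between 15 and 28. Values near 0 changed sign for Tff3 between 3 and 9 months (0.00129 with the smooth muscle score), Zg16 between 15 and 24 (-0.00322 with the replicate block) and Muc13 between 15 and 24 (0.0039 with the pan-epithelial score). With the longest transcript in place of merged exons, mean TPM was 15116 for Muc2, 8088 for Zg16, 2195 for Tff3, 1217 for Muc13 and 59.5 for Muc4. Of 660 fold changes under the other settings, 632 kept direction and side of the threshold, 17 fell short of it, 8 passed it and 3 changed sign. The cause was not tested. The labels name no link between mice of different ages with the same replicate number. The median r of their deviations was 0.0116 over 161 pairs, and 3 of 83 mice were closest to their own number. With the replicate block, the call of Zg16 between 3 and 28 months was lost (adjusted p = 0.101). In that comparison Spdef kept its call in 8 of 11 other fits (adjusted p up to 0.285) and Muc13 in 10 (adjusted p up to 0.133). Between 15 and 28 months Spdef kept its call in 7 of 11 (adjusted p up to 0.173).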
